A study of Mus musculus with 16 samples.

Results

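The DNA repair and damage signalling genes described here are a list of 43 genes of DNA break sensing, homologous recombination, the Fanconi anaemia pathway, end joining, base excision, nucleotide excision, mismatch repair and translesion synthesis. They were found by symbol among the 55450 genes of the deposited expression tables, and each of the 43 had a row. Stranded poly(A) RNA sequencing had been applied to primary articular chondrocytes of the mouse, the matrix-producing cells of joint cartilage, kept at 3% oxygen with 10% fetal bovine serum. The 16 libraries fall into 4 groups of 4. The bleomycin group had a serum-free step of 4 h with hyaluronidase at 4 U/mL, then bleomycin at 50 µg/mL for 24 h, then 5 days in fresh medium. The doxorubicin group had doxorubicin at 50 nM for 5 days with the medium renewed every 48 h. The IL-1β group had the inflammatory cytokine interleukin-1 beta at 1 ng/mL for 24 h. The vehicle of the labels is phosphate-buffered saline, in the volume of the cytokine, for 24 h. Nothing in the labels says when vehicle cells were harvested, whether they had hyaluronidase, or whether libraries of a group came from separate animals or cultures, so p-values measure the spread between these libraries, which may be technical. Age and strain of the mice are not given in these sources.

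Cells answer DNA breaks with kinases, ATM at double-strand breaks and ATR at stretches of single-stranded DNA, which activate the checkpoint kinases CHK2 and CHK1. Homologous recombination copies a sister chromatid and so works in S and G2 phase, when cells replicate or have replicated their DNA, and many of its genes are transcribed with the cell cycle. End joining ligates broken ends at any phase. The excision pathways cut out damaged bases or short damaged strands, and the Fanconi pathway releases crosslinks between the strands. Bleomycin cleaves DNA through free radicals and doxorubicin traps topoisomerase II on DNA. Articular chondrocytes divide little in the adult joint and divide when put into culture.

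The values are FPKM, fragments scaled to transcript length and library size, and were compared as log2(FPKM + 1) with a linear model fitted in limma to 12976 genes. A gene was tested when 4 or more of the 16 libraries held it at 1 FPKM or above, and it was called when its p adjusted by the Benjamini-Hochberg method over all tested genes was under 0.05. Group levels are mean ± SD FPKM of 4 libraries, and differences are log2 differences ± SE, which understate the change of genes of low level. Estimated depth was 15.7 to 21.9 M fragments (M, mega) per library. FPKM sums were 405159 to 423830 in the bleomycin, doxorubicin and vehicle libraries and 521294 to 559190 in the IL-1β libraries, so differences with IL-1β depend on scaling. What a second scaling does to the IL-1β calls of the listed genes is given with them. The IL-1β calls of marker genes and of other pathway genes are given under 1 scaling alone. The chondrocyte genes Col2a1 (type II collagen) and Acan (aggrecan) averaged 8971 and 619.7 FPKM in vehicle cells. Endothelial markers summed to at most 0.8 FPKM in any library, and 3 of 6 macrophage markers passed the filter. In RNA from whole cultures, fewer cells of a type and less RNA per cell cannot be told apart.

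Of the 43 genes, 42 passed the filter, and 0 of them passed through 1 group alone. Bard1, which encodes the partner of BRCA1, was left out with 1 library at 1 FPKM or more. Its means were 0.584 ± 0.0911 FPKM in bleomycin, 0.456 ± 0.0433 in doxorubicin, 0.692 ± 0.144 in IL-1β and 0.792 ± 0.150 in vehicle cells. Brip1, the helicase gene nearest above the filter, had 8 libraries at that level. These are mostly low transcripts: 23 of the 43 had a vehicle mean under 5 FPKM, 11 lay from 5 to 10 FPKM and 9 were at 10 FPKM or more. Ddb1 was the highest, at 255 ± 14.5 FPKM in vehicle cells, followed by Parp1 at 26.9 ± 1.93 FPKM.

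RefSeq promoter windows (GRCm38.p6, 250 bases before to 50 after an annotated start) were found for 35 of the 43 genes. They were searched on both strands for sites of E2F, the S-phase transcription factor family (TTTGGCGC, TTTCCCGC, TTTCGCGC or TTTGCCGC), the CHR element of late cell-cycle genes (TTTGAA), the CCAAT box (CCAAT) and a p53 decamer. An E2F site was in the window of 6 of the 35 genes (17.1%), against 2.6% of all 27025 genes with a window. The CHR element was in 8.57% of the listed genes with a window, against 20.2% of all, the CCAAT box in 51.4%, against 41.1%, and the p53 decamer in 8.57%, against 9.55%. The 6 genes with an E2F match were Bard1, Brca2, Chek2, Msh6, Rad51c and Xrcc6, and the 3 with a p53 decamer were Brip1, Fanca and Polk. A match is a run of letters and not a measured binding site. The windows of 3 genes that were lower after doxorubicin, each from another pathway and each with an E2F match in capitals, are shown with the window of Polk, which was higher after both drugs and has a p53 decamer in capitals. The other genes with that decamer went the other way: Brip1 was lower after doxorubicin, and Fanca was lower after both drugs and after IL-1β. The windows of Rad51ap1, Rad54l, Fanci, Fancb, Chek1, Ung and Parp1, lower after both drugs, held 0 matches to these exact E2F letters. Other forms of the site were not searched, so 0 matches does not show that a site is absent. Of the other genes with an E2F match, Chek2 was lower after doxorubicin, Brca2 was not called after it and Bard1 was not tested.
Rad51c, chr11:87404905-87405204, minus strand: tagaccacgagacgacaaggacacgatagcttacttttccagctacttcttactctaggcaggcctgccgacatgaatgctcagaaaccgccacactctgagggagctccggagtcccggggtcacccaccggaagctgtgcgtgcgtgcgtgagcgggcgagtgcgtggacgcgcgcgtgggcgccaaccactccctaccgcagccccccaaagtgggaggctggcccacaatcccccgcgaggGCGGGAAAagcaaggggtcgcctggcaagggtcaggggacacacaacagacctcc
Xrcc6, chr15:82016119-82016418, plus strand: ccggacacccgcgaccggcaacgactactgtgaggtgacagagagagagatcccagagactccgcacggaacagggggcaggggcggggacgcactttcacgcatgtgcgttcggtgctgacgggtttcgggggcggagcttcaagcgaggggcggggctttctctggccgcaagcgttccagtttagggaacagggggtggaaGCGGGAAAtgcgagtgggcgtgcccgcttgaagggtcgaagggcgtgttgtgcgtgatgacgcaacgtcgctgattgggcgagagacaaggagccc
Msh6, chr17:87974800-87975099, plus strand: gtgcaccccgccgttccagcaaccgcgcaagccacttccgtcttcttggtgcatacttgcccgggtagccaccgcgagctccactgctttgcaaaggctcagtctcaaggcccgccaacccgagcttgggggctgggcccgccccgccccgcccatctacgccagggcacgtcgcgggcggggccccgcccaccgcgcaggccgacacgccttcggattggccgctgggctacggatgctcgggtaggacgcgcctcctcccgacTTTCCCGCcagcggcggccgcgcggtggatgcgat
Polk, chr13:96519138-96519437, minus strand: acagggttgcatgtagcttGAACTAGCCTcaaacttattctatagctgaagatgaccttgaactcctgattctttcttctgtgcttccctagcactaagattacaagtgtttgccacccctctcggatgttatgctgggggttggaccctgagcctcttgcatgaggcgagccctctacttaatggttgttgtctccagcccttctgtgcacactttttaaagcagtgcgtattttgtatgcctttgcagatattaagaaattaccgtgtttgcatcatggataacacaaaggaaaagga
In the Rad51c and Xrcc6 windows shown the match is GCGGGAAA, which is TTTCCCGC read on the opposite strand, and in the Msh6 window it is TTTCCCGC itself. The window of the other annotated start of Rad51c, not shown, holds TTTCGCGC, also an E2F match. The Polk match lies in the window of 1 of 2 annotated starts, and the other start's window has 0 matches.

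After bleomycin 3 of 42 were higher, where 27.9% of all tested genes were called higher, and 21 were lower, where 19% of all were called lower. After doxorubicin 4 were higher, against 25.4% of all tested genes, and 27 were lower, against 22.8%. After IL-1β 2 were higher, against 24.5% of all, and 14 were lower, against 18.4%, while with values scaled to 1 equal sum per library (TPM, transcripts per M) IL-1β gave 0 higher and 30 lower. The median difference of the 42 genes was -0.28 for bleomycin, -0.41 for doxorubicin and -0.17 for IL-1β, beside 0.06, 0.02 and 0.03 for all tested genes, and for IL-1β under TPM scaling it was -0.51 beside -0.31 for all. These comparisons share the vehicle libraries. Vehicle and IL-1β were given for 24 h, while both drug schedules ran 5 days or more. In comparisons of a drug with vehicle or IL-1β, drug and time in culture cannot be told apart. Of all calls after bleomycin 59.5% were higher, which became 48.3% with quantile normalization, and the listed genes stayed at 3 higher under each scaling. Of the 42 genes, 20 were lower after both drugs, 7 passed the test as lower after doxorubicin alone and 1, Brca2, after bleomycin alone. Of these calls, 4 genes were lower by a log2 difference of 1 or more after doxorubicin and 0 after bleomycin or IL-1β. These are differences of FPKM + 1, and falls in FPKM itself were larger for low genes. How many of all tested genes were lower after both drugs, after 1 alone or by that size was not counted. The counts of such genes therefore have no baseline.

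**Figure D1:**
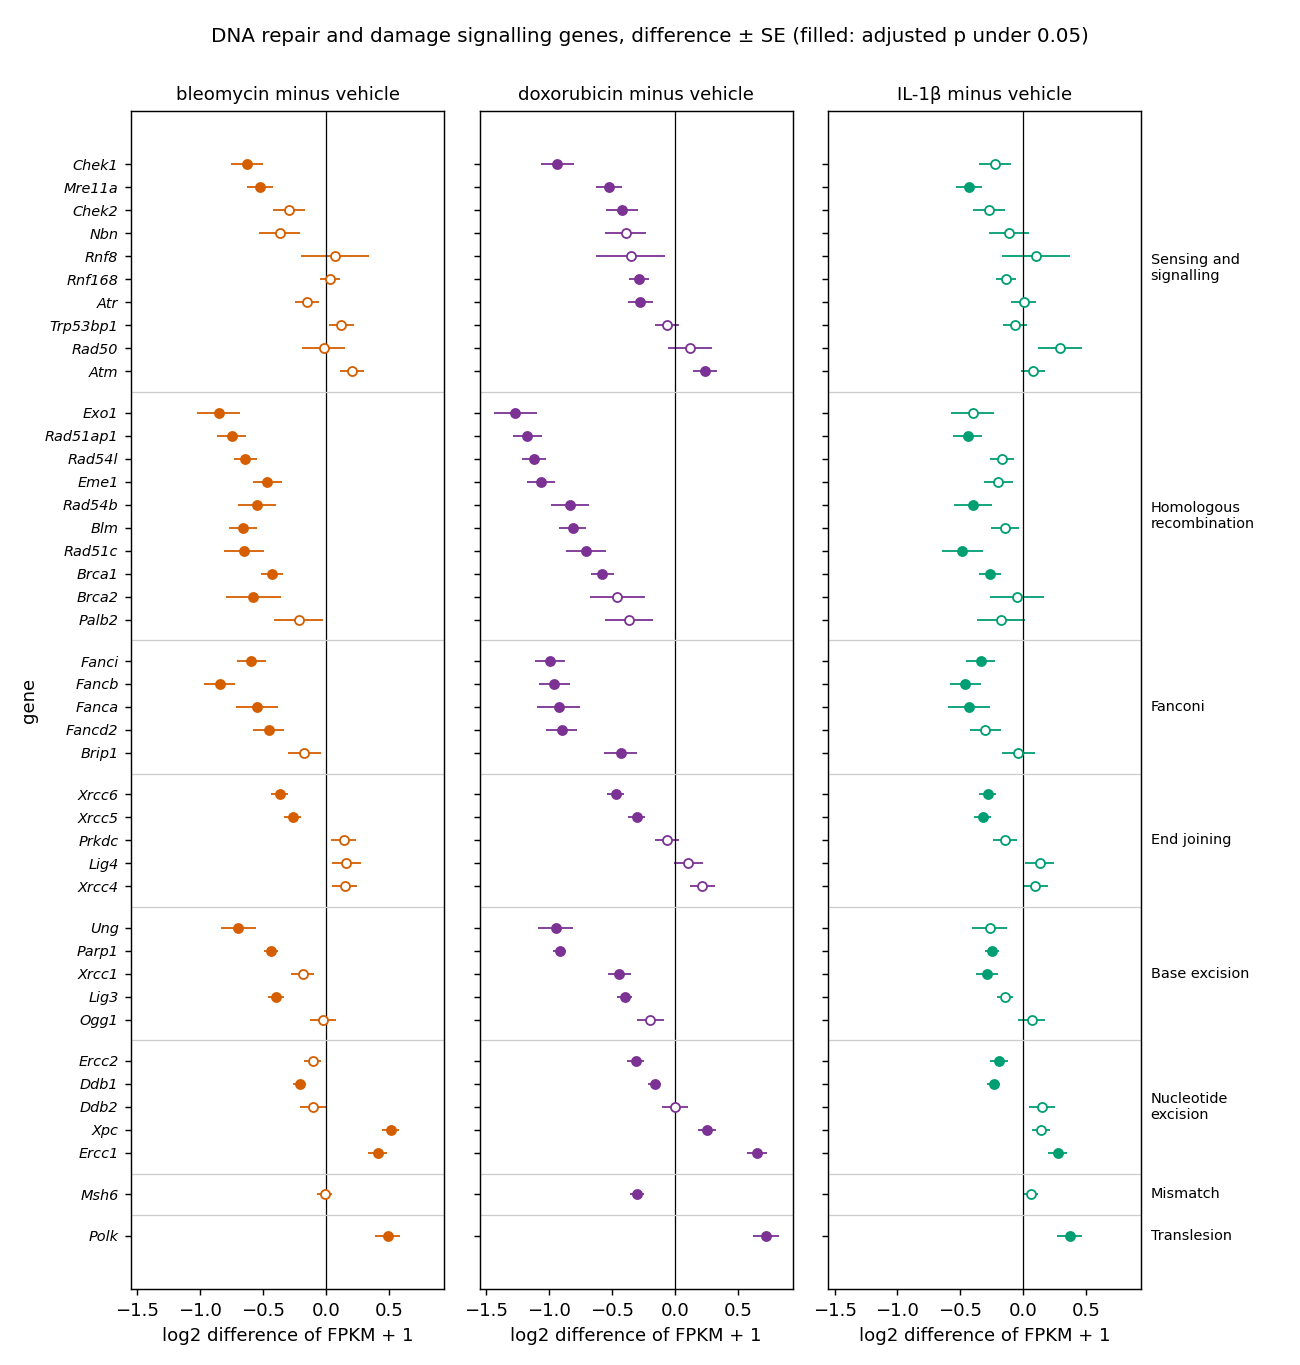
Log2 difference of FPKM + 1 (horizontal axis, ± SE) of each of the 42 tested genes, grouped by pathway down the page, for bleomycin, doxorubicin and IL-1β minus vehicle; filled points have an adjusted p under 0.05. Homologous recombination and Fanconi genes lie left of 0 after both drugs, down to -1.27 for Exo1 after doxorubicin, while Xpc, Ercc1 and Polk lie right of 0.

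Among the 10 genes of break sensing and checkpoint signalling, bleomycin gave 0 higher by limma (1 at an unadjusted p under 0.05) and 2 lower. That count lower is near the 19% of all tested genes. Doxorubicin gave 1 higher, against 25.4% of all, and 5 lower, against 22.8%. The largest decrease was that of Chek1 (ENSMUSG00000032113.16, chromosome 9, 36708482 to 36727065, minus strand), the checkpoint kinase activated by ATR. It had 2.63, 1.83, 2.36 and 2.00 FPKM in bleomycin and 1.5, 1.35, 1.80 and 1.72 FPKM in doxorubicin libraries, against 4.63, 4.31, 2.80 and 4.20 FPKM in vehicle libraries. Every library of either drug was below every vehicle library, and Chek1 fell after both drugs (bleomycin -0.63 ± 0.13, adjusted p = 0.000795; doxorubicin -0.93 ± 0.13, adjusted p = 1.75e-05). Mre11a (ENSMUSG00000031928.15, chromosome 9, 14784654 to 14837123, plus strand), the nuclease of the complex that first binds double-strand breaks, had 6.65, 6.89, 6.51 and 6.76 FPKM in bleomycin and 6.30, 7.99, 5.55 and 7.26 FPKM in doxorubicin libraries, against 10.9, 10.2, 9.48 and 9.85 FPKM in vehicle libraries. Its groups did not overlap either, and the decreases were of like size (-0.53 ± 0.10 and -0.52 ± 0.10, adjusted p = 0.000657 and 0.000631). The partners of Mre11a in that complex did not pass: Rad50 differed by -0.02 ± 0.17 after bleomycin and 0.12 ± 0.17 after doxorubicin, and Nbn by -0.37 ± 0.16 and -0.39 ± 0.16 (adjusted p = 0.0709 and 0.0573).

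Chek2 (ENSMUSG00000029521.7, chromosome 5, 110839979 to 110874145, plus strand), the checkpoint kinase activated by ATM, had 4.98, 3.37, 4.10 and 4.02 FPKM in bleomycin and 3.11, 3.5, 4.36 and 3.77 FPKM in doxorubicin libraries, against 4.67, 4.28, 6.03 and 6.23 FPKM in vehicle libraries. Each drug group overlapped the vehicle group by 1 or more libraries, and the decrease passed for doxorubicin (-0.42 ± 0.13, adjusted p = 0.0118) but missed for bleomycin (-0.30 ± 0.13, adjusted p = 0.0662). Atm (ENSMUSG00000034218.16, chromosome 9, 53439149 to 53536740, minus strand), the kinase of double-strand breaks, was the sole gene of this class called higher, after doxorubicin. It had 3.39, 3.12, 2.64 and 3.74 FPKM in bleomycin and 3.37, 3.07, 3.41 and 3.40 FPKM in doxorubicin libraries, against 2.65, 2.76, 2.38 and 2.82 FPKM in vehicle libraries, and the doxorubicin and vehicle values did not overlap (0.24 ± 0.10, adjusted p = 0.0477). That call ended in 15 of 24 alternatives, among them the omission of any single doxorubicin or vehicle library, without which the difference was 0.20 to 0.27. Atr, the kinase of single-stranded DNA, averaged 3.92 ± 0.476 FPKM in bleomycin, 3.51 ± 0.203 FPKM in doxorubicin and 4.48 ± 0.642 FPKM in vehicle cells and fell after doxorubicin (-0.27 ± 0.10, adjusted p = 0.0288). Without doxorubicin replicate 2 or 3 or vehicle replicate 2 or 4 the Atr difference was -0.22 to -0.27 and did not pass.

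Of the genes that mark chromatin at breaks 1 was called. Rnf168, a ubiquitin ligase, averaged 7.91 ± 0.417 FPKM in bleomycin, 6.17 ± 0.495 FPKM in doxorubicin and 7.75 ± 0.751 FPKM in vehicle cells, with a decrease that passed after doxorubicin (-0.29 ± 0.08, adjusted p = 0.00648) and a bleomycin difference of 0.03 ± 0.08. Rnf8, the ligase that acts before it, ranged from 4.17 to 9.59 FPKM in bleomycin, from 3.49 to 6.10 FPKM in doxorubicin and from 3.26 to 10.2 FPKM in vehicle libraries. This was the widest SE of the list (0.270), and 13.2% of its annotated exon bases are shared on the same strand with the gene model Gm28043. Trp53bp1, which encodes the adaptor protein 53BP1, averaged 9.60 ± 0.567 FPKM in bleomycin, 8.34 ± 0.592 FPKM in doxorubicin and 8.84 ± 1.61 FPKM in vehicle cells and was not called.

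Of the 10 tested genes of homologous recombination 9 were lower after bleomycin, against 19% of all tested genes, and 8 after doxorubicin, against 22.8%. By limma 0 were higher after either drug (0 also at an unadjusted p under 0.05), and the medians were -0.61 and -0.82. Exo1 (ENSMUSG00000039748.11, chromosome 1, 175880581 to 175913489, plus strand), an exonuclease that resects broken ends, had 1.27, 1.35, 1.18 and 1.10 FPKM in bleomycin and 0.885, 0.712, 0.547 and 0.561 FPKM in doxorubicin libraries, against 3.22, 3.26, 2.14 and 3.62 FPKM in vehicle libraries. No bleomycin or doxorubicin library reached the lowest vehicle library, and no doxorubicin library reached 1 FPKM. Exo1 fell by 0.85 ± 0.17 after bleomycin (adjusted p = 0.000662) and by 1.27 ± 0.17 after doxorubicin (adjusted p = 1.38e-05), the largest decrease of the 42 genes.

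Rad51ap1 (ENSMUSG00000030346.16, chromosome 6, 126923050 to 126939587, minus strand), whose product stimulates strand pairing, had 3.78, 3.87, 3.43 and 3.89 FPKM in bleomycin and 2.40, 2.39, 2.87 and 2.51 FPKM in doxorubicin libraries, against 7.95, 6.67, 6.51 and 6.85 FPKM in vehicle libraries. The 3 groups were separate, with doxorubicin lowest and vehicle highest (bleomycin -0.75 ± 0.11, adjusted p = 5.77e-05; doxorubicin -1.17 ± 0.11, adjusted p = 4.38e-07). Rad54l (ENSMUSG00000028702.15, chromosome 4, 116094264 to 116123690, minus strand), a motor protein that drives strand exchange, had 1.23, 1.37, 1.23 and 1.56 FPKM in bleomycin and 0.862, 0.762, 0.564 and 0.567 FPKM in doxorubicin libraries, against 2.83, 3.13, 2.25 and 2.48 FPKM in vehicle libraries. Its groups were separate in the same order (bleomycin -0.64 ± 0.09, adjusted p = 4.23e-05; doxorubicin -1.12 ± 0.09, adjusted p = 8.54e-08). Of its annotated exon bases 15.4% lie opposite exons of Lrrc41, which averaged 31.7 FPKM in bleomycin, 31.3 in doxorubicin and 31.4 in vehicle cells.

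Eme1, the partner of the MUS81 endonuclease that cuts joint molecules, averaged 1.86 ± 0.258 FPKM in bleomycin, 0.899 ± 0.238 FPKM in doxorubicin and 2.97 ± 0.549 FPKM in vehicle cells (bleomycin -0.47 ± 0.11, adjusted p = 0.00323; doxorubicin -1.06 ± 0.11, adjusted p = 1.26e-06). Of Eme1 exon bases 8.0% lie opposite Lrrc59, a far higher transcript that was also lower after bleomycin (-0.79) and doxorubicin (-0.76). The part of that overlap in the Eme1 differences was not tested. Blm, the Bloom syndrome helicase, averaged 2.42 ± 0.296 FPKM in bleomycin, 2.08 ± 0.336 FPKM in doxorubicin and 4.41 ± 0.605 FPKM in vehicle cells, and fell by 0.66 ± 0.11 after bleomycin and 0.81 ± 0.11 after doxorubicin. Brca1, which promotes resection and recruits PALB2, averaged 1.27 ± 0.120 FPKM in bleomycin, 1.06 ± 0.171 FPKM in doxorubicin and 2.07 ± 0.286 FPKM in vehicle cells (bleomycin -0.43 ± 0.09, adjusted p = 0.000852; doxorubicin -0.57 ± 0.09, adjusted p = 5.58e-05). Rad51c differed by -0.65 ± 0.16 after bleomycin and -0.71 ± 0.16 after doxorubicin, and Rad54b, of which 35.8% of exon bases are shared with Fsbp on the same strand, by -0.55 ± 0.15 and -0.83 ± 0.15; these 4 differences passed.

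Brca2, a mediator of recombination, had 0.554, 0.988, 0.455 and 1.43 FPKM in bleomycin and 0.822, 1.33, 0.985 and 0.818 FPKM in doxorubicin libraries, against 2.44, 2.35, 0.830 and 1.57 FPKM in vehicle libraries. Vehicle replicate 3 lay within both drug groups. The decrease passed after bleomycin (-0.58 ± 0.22, adjusted p = 0.0385) and missed after doxorubicin (-0.46 ± 0.22, adjusted p = 0.0961), and the bleomycin call ended without bleomycin replicate 1 or 3 or vehicle replicate 1, 2 or 4, at -0.46 to -0.60, and with the replicate number as a block, at -0.58. Palb2, the bridge between BRCA1 and BRCA2, differed by -0.22 ± 0.19 after bleomycin and -0.36 ± 0.19 after doxorubicin and was not called.

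Of 5 Fanconi pathway genes 4 were lower after bleomycin and 5 after doxorubicin, against 19% and 22.8% of all tested genes. By limma 0 of the 5 were higher, also at an unadjusted p under 0.05. Fancb (ENSMUSG00000047757.17), a subunit of the core ubiquitin ligase complex, had 1.66, 1.87, 1.52 and 1.83 FPKM in bleomycin and 1.52, 1.40, 1.66 and 1.49 FPKM in doxorubicin libraries, against 4.16, 4.23, 2.65 and 4.76 FPKM in vehicle libraries. Both drug groups lay below the vehicle group (bleomycin -0.85 ± 0.12, adjusted p = 4.13e-05; doxorubicin -0.96 ± 0.12, adjusted p = 9.61e-06). Fanci (ENSMUSG00000039187.16, chromosome 7, 79391929 to 79450264, plus strand), which with Fancd2 forms the pair of proteins that the complex ubiquitinates at a crosslink, had 1.88, 1.69, 1.86 and 2.03 FPKM in bleomycin and 1.27, 1.58, 0.765 and 1.18 FPKM in doxorubicin libraries, against 3.51, 3.38, 3.19 and 3.21 FPKM in vehicle libraries. The groups were separate (bleomycin -0.59 ± 0.12, adjusted p = 0.000636; doxorubicin -0.99 ± 0.12, adjusted p = 3.91e-06), and 16% of its exon bases lie opposite Polg, which averaged 15.4 FPKM in bleomycin, 14.6 in doxorubicin and 14.9 in vehicle cells. Its partner Fancd2 averaged 1.70 ± 0.476 FPKM in bleomycin, 0.966 ± 0.128 FPKM in doxorubicin and 2.68 ± 0.398 FPKM in vehicle cells (bleomycin -0.46 ± 0.12, adjusted p = 0.00656; doxorubicin -0.90 ± 0.12, adjusted p = 1.85e-05).

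Fanca (ENSMUSG00000032815.16, chromosome 8, 123268300 to 123318576, minus strand), another core subunit, had 2.87, 1.79, 2.73 and 2.05 FPKM in bleomycin and 1.26, 2.02, 1.34 and 1.72 FPKM in doxorubicin libraries, against 3.68, 5.40, 2.82 and 3.91 FPKM in vehicle libraries. The doxorubicin group was below the vehicle group and the bleomycin group overlapped it by 1 library (bleomycin -0.55 ± 0.17, adjusted p = 0.0133; doxorubicin -0.92 ± 0.17, adjusted p = 0.000263). Without vehicle replicate 2, the highest, the bleomycin difference of Fanca was -0.42 and did not pass. Brip1, the helicase also known as FANCJ, averaged 1.04 ± 0.0761 FPKM in bleomycin, 0.704 ± 0.0884 FPKM in doxorubicin and 1.30 ± 0.139 FPKM in vehicle cells, with a call after doxorubicin alone (-0.43 ± 0.13, adjusted p = 0.0129; bleomycin -0.17 ± 0.13, adjusted p = 0.302).

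Markers of dividing cells moved with these genes. Of 12 proliferation markers, 11 were lower after each drug, with 1 higher after bleomycin and 0 after doxorubicin, and 8 were lower and 0 higher after IL-1β. Of all tested genes 19% were lower and 27.9% higher after bleomycin, 22.8% and 25.4% after doxorubicin, and 18.4% and 24.5% after IL-1β. The 12 proliferation markers summed to 173 to 183 FPKM in bleomycin, 108 to 118 in doxorubicin, 247 to 278 in IL-1β and 293 to 348 in vehicle libraries. Top2a, the topoisomerase of replicating cells, averaged 27.2 ± 1.47 FPKM in bleomycin, 17.9 ± 2.07 in doxorubicin, 38.6 ± 3.87 in IL-1β and 52.5 ± 7.27 in vehicle cells. Mki67, which encodes the Ki-67 protein of cycling cells, averaged 2.21 ± 1.44 FPKM in bleomycin, 1.46 ± 0.272 in doxorubicin, 5.82 ± 1.26 in IL-1β and 4.81 ± 1.54 in vehicle cells. The sums were lowest in doxorubicin, then bleomycin, then IL-1β, and highest in vehicle libraries. The means of 21 of the 42 genes had that order, among them Exo1, Rad51ap1, Rad54l, Fanci and Chek1. It held for 19 of the 28 called lower after either drug, but such a call itself favours a vehicle mean above the drug means. How many of all tested genes had that order was not counted, so these counts have no baseline. Called genes outside that order include Mre11a and Brca2, lowest in bleomycin, and Xrcc5, lowest in IL-1β. The part of cell division in their levels was not tested. Markers of cell type moved too. Of 8 chondrocyte markers 7 were lower after each drug and 8 after IL-1β, while Comp was higher after bleomycin, and their sums were 8062 to 10726 FPKM in bleomycin, 7934 to 10515 in doxorubicin, 4984 to 5351 in IL-1β and 10973 to 14537 in vehicle libraries. All 3 tested macrophage markers were higher in each treated group (sums of 6 markers 15.4 to 17.1 FPKM in bleomycin, 18.1 to 23.1 in doxorubicin, 28.6 to 34.3 in IL-1β and 7.87 to 10.2 in vehicle libraries), with Ptprc and Adgre1 at or near 0 throughout. The 5 adipocyte markers were higher after both drugs and 2 of them after IL-1β (sums of 66.7 to 76.9 FPKM in bleomycin, 142 to 187 in doxorubicin, 353 to 392 in IL-1β and 32.3 to 38.2 in vehicle libraries). Of 6 tendon and synovial markers 2 were higher and 1 lower after bleomycin, 3 and 1 after doxorubicin, and 2 and 3 after IL-1β. They summed to 116 to 146 FPKM in bleomycin, 162 to 219 in doxorubicin, 125 to 154 in IL-1β and 73.6 to 105 in vehicle libraries. Skeletal muscle markers summed to at most 6.19 FPKM in any library. The part of these shifts in the levels of repair genes was not tested.

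**Figure D2:**
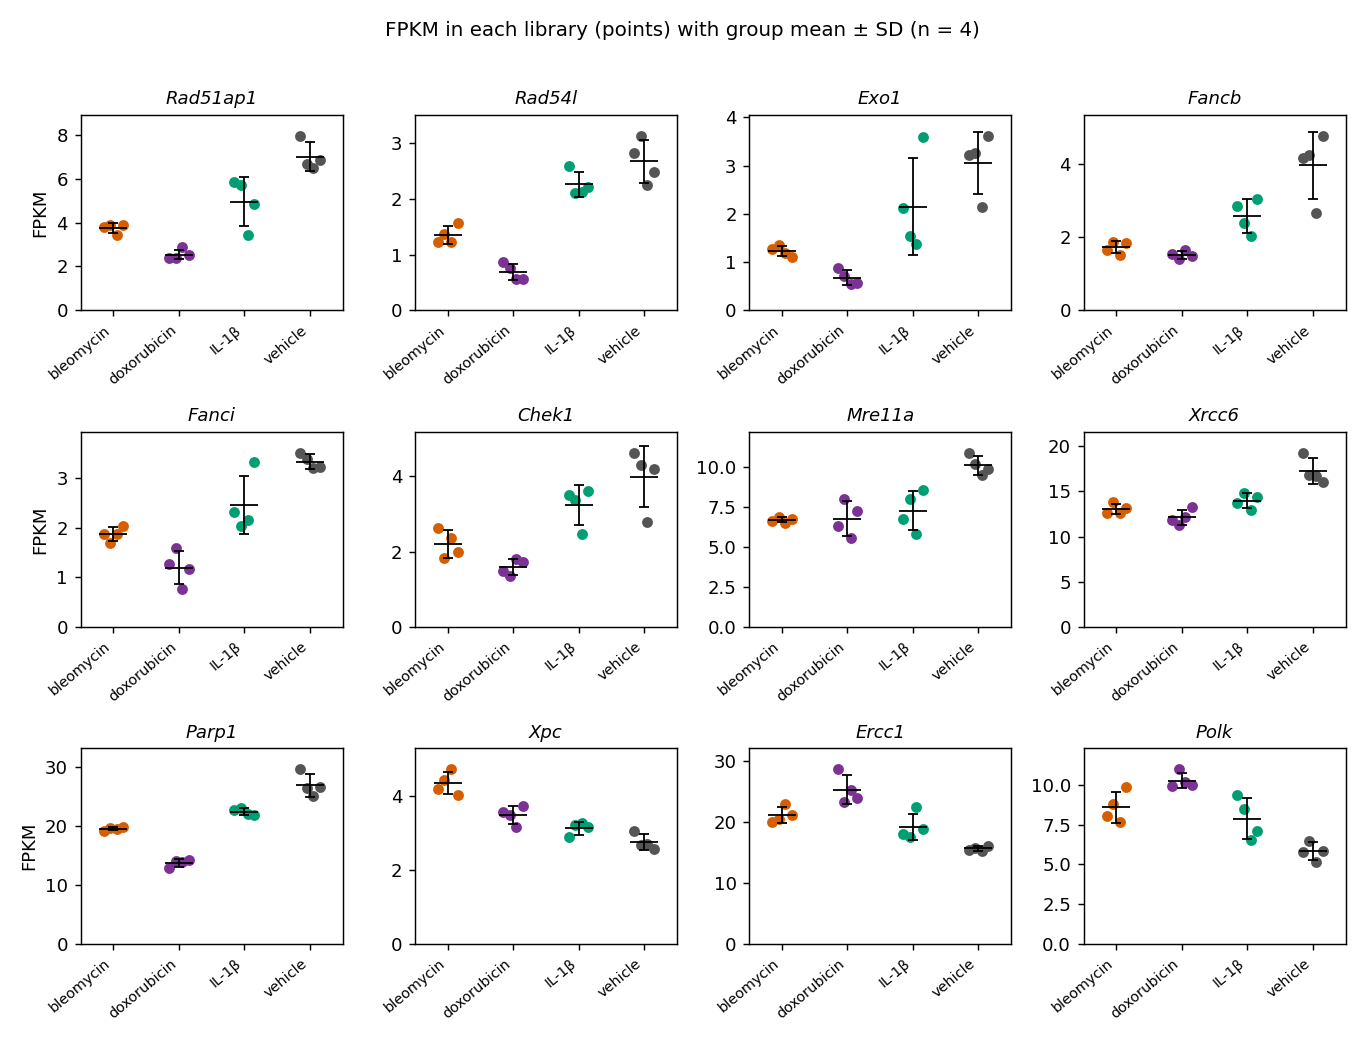
FPKM (vertical axis, from 0) of 12 of the genes in each of the 4 bleomycin, doxorubicin, IL-1β and vehicle libraries, with black bars for group mean ± SD. Rad54l lies at 0.564 to 0.862 FPKM in doxorubicin and at 2.25 to 3.13 FPKM in vehicle libraries, and Ercc1 and Polk are the genes whose highest values are in doxorubicin.

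Of 5 end joining genes 2 were lower after each drug, against 19% of all tested genes after bleomycin and 22.8% after doxorubicin. They were the same pair, Xrcc6 and Xrcc5, which encode Ku70 and Ku80, the ring that binds broken ends. Xrcc6 (ENSMUSG00000022471.14, chromosome 15, 81987835 to 82040085, plus strand) had 12.7, 13.9, 12.6 and 13.1 FPKM in bleomycin and 11.9, 11.3, 12.1 and 13.2 FPKM in doxorubicin libraries, against 19.3, 16.8, 16.7 and 16 FPKM in vehicle libraries. Its drug groups did not reach the vehicle group (bleomycin -0.37 ± 0.07, adjusted p = 0.000291; doxorubicin -0.47 ± 0.07, adjusted p = 2.45e-05). Of its exon bases 7.7% lie opposite Desi1, which averaged 23.1 FPKM in bleomycin, 22.2 in doxorubicin and 27.6 in vehicle cells. The part of that overlap in the Xrcc6 values was not tested. Xrcc5 (ENSMUSG00000026187.9) had 14.6, 13.7, 12.6 and 12.6 FPKM in bleomycin and 13.3, 12.2, 12.9 and 13.7 FPKM in doxorubicin libraries, against 17.4, 16.2, 16.7 and 14.9 FPKM in vehicle libraries, and was lower without overlap (bleomycin -0.27 ± 0.07, adjusted p = 0.00429; doxorubicin -0.30 ± 0.07, adjusted p = 0.00153).

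The genes downstream of Ku were not called after either drug. Prkdc, the catalytic subunit of the DNA-dependent protein kinase, averaged 1.99 ± 0.399 FPKM in bleomycin, 1.59 ± 0.157 FPKM in doxorubicin and 1.70 ± 0.106 FPKM in vehicle cells, with differences of 0.14 ± 0.10 and -0.06 ± 0.10. The ligase Lig4 differed by 0.16 ± 0.11 after bleomycin and 0.11 ± 0.11 after doxorubicin, and its cofactor Xrcc4 by 0.15 ± 0.10 and 0.22 ± 0.10 (adjusted p = 0.248 and 0.0845).

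Of 5 base excision and single-strand break repair genes 3 were lower after bleomycin, against 19% of all tested genes, and 4 after doxorubicin, against 22.8%. By limma 0 of these 5 were higher, also at an unadjusted p under 0.05. Ung (ENSMUSG00000029591.14, chromosome 5, 114130386 to 114139323, plus strand), the glycosylase that removes uracil from DNA, had 3.12, 2.80, 2.95 and 3.05 FPKM in bleomycin and 2.25, 2.07, 2.95 and 2.20 FPKM in doxorubicin libraries, against 5.08, 6.03, 5.95 and 4.84 FPKM in vehicle libraries. Both groups lay below vehicle (bleomycin -0.70 ± 0.14, adjusted p = 0.000659; doxorubicin -0.95 ± 0.14, adjusted p = 3.45e-05). Parp1 (ENSMUSG00000026496.11, chromosome 1, 180568924 to 180601254, plus strand), the poly(ADP-ribose) polymerase that senses strand breaks, had 19.2, 19.7, 19.4 and 19.8 FPKM in bleomycin and 12.8, 14.0, 14.0 and 14.3 FPKM in doxorubicin libraries, against 29.6, 26.4, 25.0 and 26.5 FPKM in vehicle libraries. The 3 groups were separate and narrow, and Parp1 had the smallest adjusted p of the list after doxorubicin (bleomycin -0.44 ± 0.05, adjusted p = 6.99e-06; doxorubicin -0.92 ± 0.05, adjusted p = 1.54e-09).

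Xrcc1 (ENSMUSG00000051768.9, chromosome 7, 24546289 to 24573440, plus strand), the scaffold of single-strand break repair, had 17.0, 16.9, 16.7 and 14.2 FPKM in bleomycin and 13.0, 15.6, 11 and 14.6 FPKM in doxorubicin libraries, against 18.6, 18.0, 18.7 and 18.9 FPKM in vehicle libraries. Each drug library was below each vehicle library, and the test passed for doxorubicin (-0.44 ± 0.09, adjusted p = 0.000668) but not for bleomycin (-0.19 ± 0.09, adjusted p = 0.0954). Its ligase partner Lig3 averaged 9.09 ± 0.547 FPKM in bleomycin, 9.10 ± 0.650 FPKM in doxorubicin and 12.3 ± 0.614 FPKM in vehicle cells, the same decrease after each drug (-0.40 ± 0.06 and -0.40 ± 0.06). Ogg1, the glycosylase for oxidized guanine, averaged 5.75 ± 0.522 FPKM in bleomycin, 5.00 ± 0.528 FPKM in doxorubicin and 5.89 ± 0.904 FPKM in vehicle cells and was not called.

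Nucleotide excision repair held calls in both directions. Xpc and Ercc1 were higher after both drugs, Ddb1 was lower after both, Ercc2 was lower after doxorubicin and Ddb2 was not called. Xpc (ENSMUSG00000030094.8, chromosome 6, 91489305 to 91515888, minus strand), the protein that recognizes distorted DNA and whose human gene is a p53 target, had 4.21, 4.44, 4.73 and 4.05 FPKM in bleomycin and 3.57, 3.51, 3.17 and 3.73 FPKM in doxorubicin libraries, against 3.07, 2.69, 2.70 and 2.57 FPKM in vehicle libraries. The groups were separate with bleomycin highest (bleomycin 0.51 ± 0.07, adjusted p = 1.97e-05; doxorubicin 0.26 ± 0.07, adjusted p = 0.00586). Ercc1 (ENSMUSG00000003549.9, chromosome 7, 19344778 to 19356524, plus strand), which with XPF cuts the damaged strand on its upstream side, had 19.9, 20.4, 22.9 and 21.1 FPKM in bleomycin and 28.6, 23.2, 25.2 and 23.9 FPKM in doxorubicin libraries, against 15.4, 15.8, 15.3 and 16.1 FPKM in vehicle libraries. Here doxorubicin was highest, again with no overlap (bleomycin 0.41 ± 0.08, adjusted p = 0.0004; doxorubicin 0.65 ± 0.08, adjusted p = 3.29e-06).

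Ddb1 (ENSMUSG00000024740.10, chromosome 19, 10605327 to 10629819, plus strand), the large subunit of the ultraviolet-damage sensor and an adaptor of cullin ubiquitin ligases, had 219.6, 227, 209.7 and 225 FPKM in bleomycin and 223, 242, 219.5 and 229.5 FPKM in doxorubicin libraries, against 272, 261, 248 and 239 FPKM in vehicle libraries. The bleomycin group was below the vehicle group and the doxorubicin group overlapped it by 1 library (bleomycin -0.21 ± 0.05, adjusted p = 0.00347; doxorubicin -0.16 ± 0.05, adjusted p = 0.0188). The doxorubicin call ended without doxorubicin replicate 1 or 3 or vehicle replicate 1 or 2, at -0.13 to -0.15. Ddb2, the small subunit and in human cells a p53 target, had 3.54, 3.58, 4.00 and 4.57 FPKM in bleomycin and 4.23, 4.31, 3.79 and 4.86 FPKM in doxorubicin libraries, against 4.58, 4.04, 4.43 and 4.12 FPKM in vehicle libraries, which overlapped (-0.11 ± 0.10 and -0.00 ± 0.10). Ercc2 (ENSMUSG00000030400.17, chromosome 7, 19382010 to 19395694, plus strand), the XPD helicase of the transcription and repair factor TFIIH, had 8.77, 7.97, 8.24 and 7.95 FPKM in bleomycin and 6.79, 7.29, 7.03 and 6.98 FPKM in doxorubicin libraries, against 8.92, 8.91, 9.84 and 8.15 FPKM in vehicle libraries. Its doxorubicin values were below all vehicle values (-0.31 ± 0.07, adjusted p = 0.00143), its bleomycin values overlapped them (-0.11 ± 0.07, adjusted p = 0.219), and 17.8% of its exon bases lie opposite Klc3.

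Targets of p53 outside repair were also measured. Of 12 such genes, 12 were higher after bleomycin, 9 after doxorubicin and 9 after IL-1β, and 0 were lower. Of all tested genes 27.9%, 25.4% and 24.5% were higher in these comparisons, and 19%, 22.8% and 18.4% were lower. The 12 genes summed to 1090 to 1131 FPKM in bleomycin, 1201 to 1268 in doxorubicin, 777 to 902 in IL-1β and 496 to 548 in vehicle libraries. Cdkn1a, which encodes the cell-cycle inhibitor p21, averaged 302 ± 11.2 FPKM in bleomycin, 327 ± 17.9 in doxorubicin and 122 ± 4.55 in vehicle cells, and Mdm2, the ubiquitin ligase of p53, 64.7 ± 4.22 FPKM in bleomycin, 73.8 ± 3.84 in doxorubicin and 38.9 ± 2.22 in vehicle cells. The part of p53 in the level of any listed gene was not tested.

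The single genes of mismatch repair and translesion synthesis differed in direction. Msh6 (ENSMUSG00000005370.4, chromosome 17, 87975062 to 87990892, plus strand), which encodes a protein that recognizes mismatches, had 8.51, 8.89, 8.51 and 8.57 FPKM in bleomycin and 6.51, 6.94, 6.82 and 7.34 FPKM in doxorubicin libraries, against 9.20, 8.64, 8.31 and 8.70 FPKM in vehicle libraries. Bleomycin and vehicle values overlapped (-0.01 ± 0.06, adjusted p = 0.87), whereas the doxorubicin values were below all others (-0.30 ± 0.06, adjusted p = 0.0004). Polk (ENSMUSG00000021668.15, chromosome 13, 96480690 to 96542579, minus strand), the polymerase kappa that copies past damaged bases, had 8.04, 8.80, 7.67 and 9.89 FPKM in bleomycin and 9.95, 11, 10.2 and 9.99 FPKM in doxorubicin libraries, against 5.80, 6.50, 5.15 and 5.87 FPKM in vehicle libraries. The groups were separate, doxorubicin highest and vehicle lowest (bleomycin 0.49 ± 0.10, adjusted p = 0.000786; doxorubicin 0.73 ± 0.10, adjusted p = 1.73e-05), and this was the largest increase of the 42 genes after doxorubicin.

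Set against each other, the drugs differed in 9 of 42 genes, each higher in bleomycin than in doxorubicin cells, where 5.85% of all tested genes were called higher in bleomycin. By limma 0 of the 42 were called lower in bleomycin, where 4.18% of all tested genes were, and 2, Ercc1 and Polk, had an unadjusted p under 0.05 in that direction. In the same comparison the median difference was 0.16, beside 0.04 for all genes. By pathway the 9 genes higher in bleomycin were Rnf168 of break signalling, Rad51ap1, Rad54l and Eme1 of recombination, Fancd2 and Fanci of the Fanconi pathway, Parp1, Xpc and Msh6. Parp1 (0.48 ± 0.05, adjusted p = 5.22e-05), Rad54l (0.48 ± 0.09, adjusted p = 0.00399), Eme1 (0.60 ± 0.11, adjusted p = 0.00329) and Msh6 (0.28 ± 0.06, adjusted p = 0.00419) kept the call under every alternative run. Eme1 had 2.22, 1.64, 1.87 and 1.71 FPKM in bleomycin libraries, against 1.11, 0.747, 0.645 and 1.09 FPKM in doxorubicin libraries. Lrrc59, opposite 8.0% of its exon bases, averaged 98.4 FPKM in bleomycin, 100.2 in doxorubicin and 170.7 in vehicle cells.

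The other 5 calls between the drugs ended under some alternatives. Rad51ap1 (0.42 ± 0.11, adjusted p = 0.028), Fancd2 (0.44 ± 0.12, adjusted p = 0.0342), Fanci (0.40 ± 0.12, adjusted p = 0.0445), Rnf168 (0.32 ± 0.08, adjusted p = 0.0176) and Xpc (0.25 ± 0.07, adjusted p = 0.0304) kept their direction, but each lost the call without at least 3 of the single libraries. The number of genes called higher was 5 without bleomycin replicate 2, bleomycin replicate 3, doxorubicin replicate 1 or doxorubicin replicate 4, and 5 to 10 over all single omissions. Of all genes called between the drugs 58.3% were higher in bleomycin, a share of 46.6% with quantile normalization and of 38.7% when libraries were scaled by their median ratio. Ercc1 and Polk lay the other way, with doxorubicin higher, and did not pass (Ercc1 -0.25 ± 0.08, adjusted p = 0.0542; Polk -0.24 ± 0.10, adjusted p = 0.154). The schedules differed, 24 h of bleomycin and 5 days of recovery against 5 days of doxorubicin, and the hyaluronidase step is given for bleomycin cells alone. Drug, schedule and that step cannot be told apart.

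**Figure D3:**
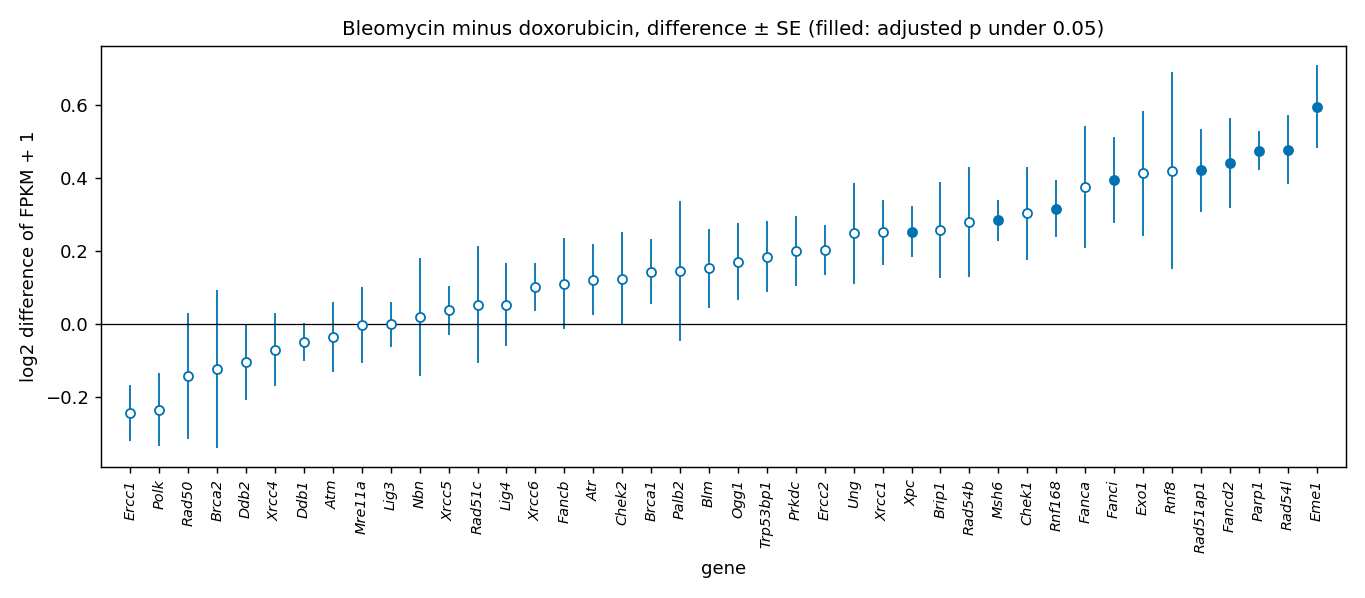
Log2 difference of FPKM + 1, bleomycin minus doxorubicin (vertical axis, ± SE), of the 42 tested genes sorted by size; filled points have an adjusted p under 0.05. All 9 filled points are above 0, from 0.25 for Xpc to 0.60 for Eme1.

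After IL-1β 2 of 42 genes were higher and 14 were lower. Parp1 had 22.6, 23.1, 22.1 and 21.9 FPKM in IL-1β libraries, against 29.6, 26.4, 25.0 and 26.5 FPKM in vehicle libraries, with no overlap (-0.25 ± 0.05, adjusted p = 0.00138). Mre11a had 6.76, 7.98, 5.83 and 8.53 FPKM in IL-1β libraries, all below the vehicle libraries (-0.43 ± 0.10, adjusted p = 0.00313). The Ku genes were again lower together: Xrcc5 had 12.5, 14.0, 11.8 and 12.9 FPKM and Xrcc6 13.7, 14.8, 12.9 and 14.4 FPKM in IL-1β libraries, below all their vehicle values (Xrcc5 -0.32 ± 0.07, adjusted p = 0.00105; Xrcc6 -0.28 ± 0.07, adjusted p = 0.00266). In recombination Rad51ap1 had 5.85, 5.70, 3.41 and 4.85 FPKM in IL-1β libraries, below the vehicle range (-0.44 ± 0.11, adjusted p = 0.00495), and Brca1, Rad51c and Rad54b were also called lower. In the Fanconi pathway Fancb had 2.85, 2.39, 2.02 and 3.03 FPKM, of which 2 libraries lay within the vehicle range of 2.65 to 4.76 FPKM (-0.46 ± 0.12, adjusted p = 0.00675), and Fanca and Fanci were called as well. Ddb1, with 222, 221, 204 and 218 FPKM in IL-1β libraries (-0.24 ± 0.05, adjusted p = 0.00145), Ercc2 and Xrcc1 made up the 14.

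The 2 genes higher after IL-1β were Ercc1 and Polk. Ercc1 had 18.0, 17.5, 22.3 and 18.8 FPKM in IL-1β libraries, against 15.4, 15.8, 15.3 and 16.1 FPKM in vehicle libraries (0.27 ± 0.08, adjusted p = 0.00885). Polk had 9.38, 8.52, 6.54 and 7.08 FPKM in IL-1β libraries, against 5.80, 6.50, 5.15 and 5.87 FPKM in vehicle libraries (0.37 ± 0.10, adjusted p = 0.00658), also without overlap. Neither call remained under TPM scaling, which put Ercc1 at -0.0822 and Polk at 0.05, and all 14 lower calls remained, at -0.56 to -0.89. That scaling moved the median of all genes to -0.31, which favours lower calls, so it does not show them to be firmer. Both Ercc1 and Polk stayed above that median. The share of calls that were higher moved from 57.1% to 16.1% (44.0% with quantile normalization). Without IL-1β replicate 1 the count lower was 9 and without IL-1β replicate 3 it was 8. Of the 16 calls 7 held under every alternative run, and Fanca, Fanci, Rad51c, Rad54b, Brca1 and Ercc2 each lost theirs in at least 5 of the alternatives, single omissions among them. The Xrcc1 call ended without IL-1β replicate 1, at -0.25.

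Set against IL-1β directly, the mean of the 2 drug groups was higher for 3 of 42 genes, where 28.5% of all tested genes were higher, and lower for 16, where 29.5% of all were lower. The higher genes were Xpc (0.24 ± 0.06, adjusted p = 0.00248), Ercc1 (0.26 ± 0.07, adjusted p = 0.00332) and Polk (0.24 ± 0.09, adjusted p = 0.0273). The lower genes included 7 of 10 recombination genes, with Rad54l (-0.71 ± 0.08, adjusted p = 1.64e-06) and Exo1 (-0.66 ± 0.15, adjusted p = 0.00116) lowest, and Chek1 (-0.55 ± 0.11, adjusted p = 0.000465). Rad54l had 2.59, 2.10, 2.13 and 2.21 FPKM in IL-1β libraries and Exo1 2.12, 1.53, 1.37 and 3.60 FPKM, all above each gene's bleomycin and doxorubicin libraries. Under TPM scaling the 3 higher calls remained, at 0.61 to 0.64, and of the 16 lower calls 5 remained, with Rad54l at -0.63, Exo1 at -0.57 and Chek1 at -0.34 among them, 8 no longer passed and 3 changed sign. In all 16 were then higher and 5 lower. The median of all genes moved to 0.34, which favours higher calls, and the share of all calls that were higher from 49.2% to 83.7%. The Polk call ended without IL-1β replicate 3 or 4, at 0.16 and 0.20.

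Other genes of the same pathways, 106 tested of 109 listed, gave 14 higher and 31 lower after bleomycin, against 27.9% and 19% of all tested genes. They gave 10 and 46 after doxorubicin, against 25.4% and 22.8% of all, and 19 and 18 after IL-1β, against 24.5% and 18.4%. The count lower after IL-1β is near that share. Median differences of these genes were -0.10, -0.20 and -0.03, beside 0.06, 0.02 and 0.03 for all tested genes. In break signalling Clspn, the CHK1 adaptor claspin, and Timeless, of the replication fork protection complex, fell by 1.10 ± 0.10 and 0.92 ± 0.12 after doxorubicin. In recombination the resection nuclease Dna2 fell by 0.83 ± 0.13 after doxorubicin. Usp1, the protease that removes ubiquitin from FANCD2, averaged 8.79 ± 0.535 FPKM in bleomycin, 7.86 ± 0.652 in doxorubicin and 16.3 ± 1.16 in vehicle cells, and Fancl, the ligase subunit, fell by 0.71 ± 0.10 after doxorubicin.

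In end joining Polm and Polq, both polymerases, had calls of opposite sign. Polm, polymerase mu of classical end joining, averaged 7.68 ± 0.470 FPKM in bleomycin, 9.75 ± 0.943 FPKM in doxorubicin and 5.66 ± 0.814 FPKM in vehicle cells and was higher after both drugs. Polq, polymerase theta of the alternative route, averaged 1.01 ± 0.303 FPKM in bleomycin, 0.331 ± 0.0341 FPKM in doxorubicin and 1.45 ± 0.563 FPKM in vehicle cells and was lower after doxorubicin (-0.85 ± 0.16, adjusted p = 0.000392; bleomycin -0.27 ± 0.16, adjusted p = 0.189). In excision repair the replication ligase Lig1 (-1.17 ± 0.10) and the glycosylase Neil3 (-0.78 ± 0.09) were lower after doxorubicin, Ercc5, the XPG nuclease, was higher (0.68 ± 0.08) and the TFIIH subunit Gtf2h4 was lower (-0.48 ± 0.10). Of translesion synthesis the clamp Pcna (-0.64 ± 0.07) and the ubiquitin ligase Rad18 (-0.62 ± 0.08) were lower after doxorubicin. Of the 9 other genes tested there 3 were lower and 2 higher, the higher ones being Rev1 (0.41 ± 0.08) and Ube2b (0.23 ± 0.07), named after their values were seen.

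**Figure D4:**
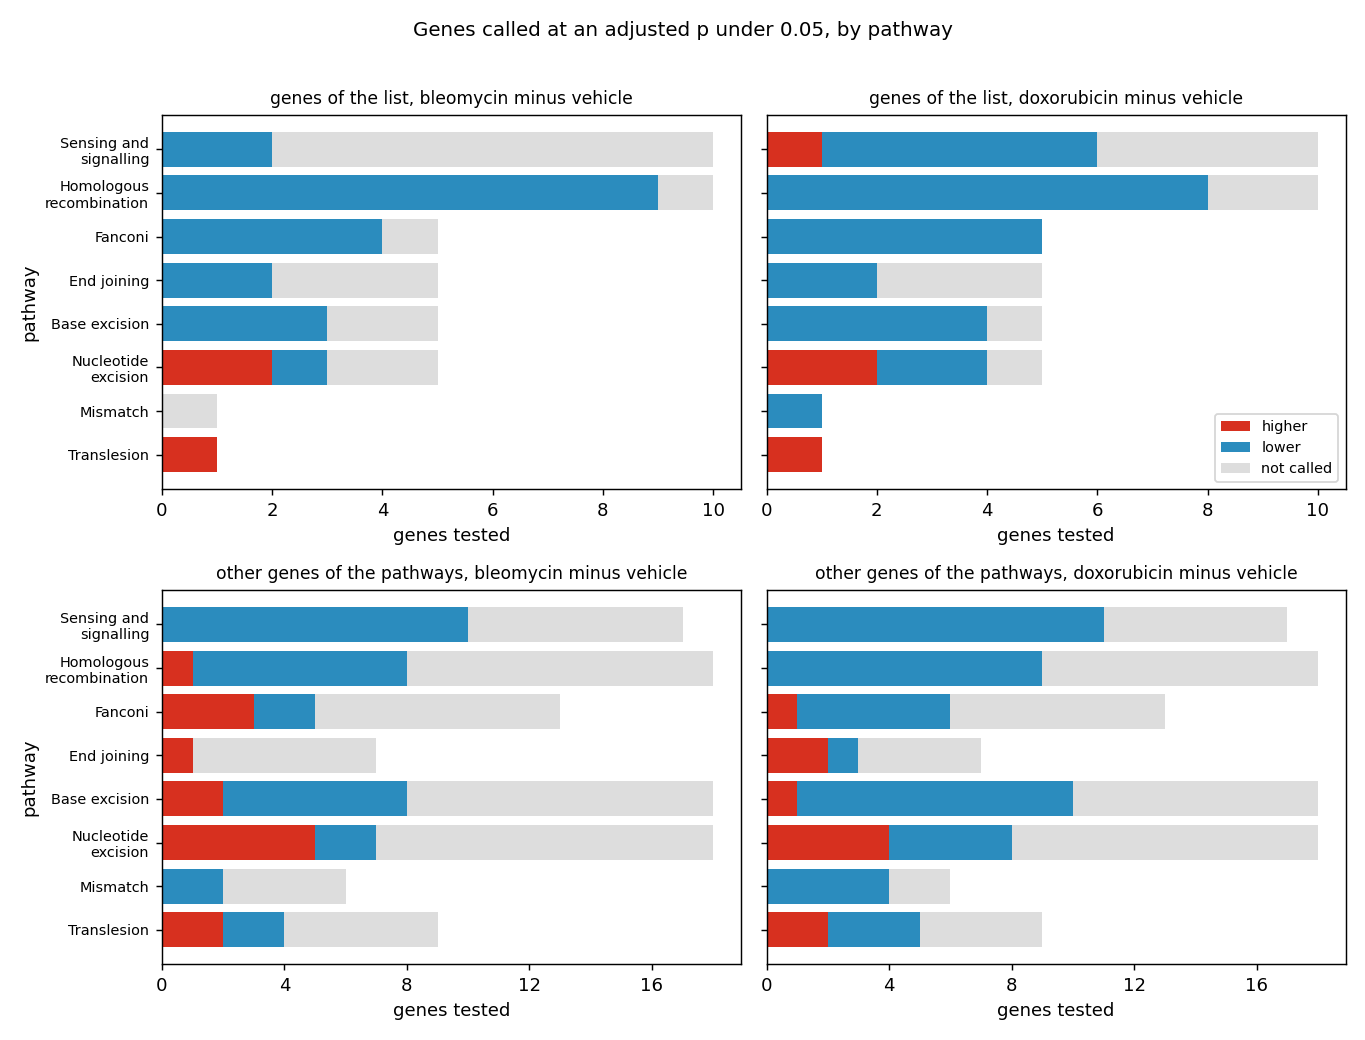
Number of genes (horizontal axis) called higher, lower or not called in each pathway, for the 42 listed genes tested (upper panels) and the 106 other genes of the same pathways (lower panels), bleomycin minus vehicle on the left and doxorubicin minus vehicle on the right. In the upper panels recombination and Fanconi bars hold lower calls and no higher ones, with 9 and 4 lower after bleomycin and 8 and 5 after doxorubicin.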

How the data were processed

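Stranded poly(A) libraries (TruSeq Stranded mRNA, per the labels' protocols) were made from 16 chondrocyte samples. Per the submitters' processing notes, Trimmomatic and STAR were used, with the genome build GRCm38 and without versions. The deposited values are FPKM, computed by the authors, while the tool, its use of strand, annotation and filters are not given in these sources. Depth was estimated from the steps between low FPKM values of genes of at least 1000 bases. Only 64.3% to 67.4% of low values were whole fragments within 0.1, so no count test was run. Within groups at most 0.009% of values were equal between libraries.

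The 43 genes, the lists of other and marker genes and the tests were chosen with earlier results of these data known. Symbols are the row names up to the identifier, and 41 of the 43 identifiers had the same version in GENCODE M21, the source of coordinates and exon overlaps. Of 109 other genes, 107 had a row. Values were taken as log2(FPKM + 1) and filtered at 1 FPKM in 4 of 16 libraries. A group model over all 16 libraries was fitted in R 4.3.3 by limma 3.58.1 (empirical Bayes with the variance trended on the mean, two-sided, Benjamini-Hochberg over 12976 genes), after the script was tested on simulated data. FPKM are relative to each library's own total, so a difference is one of share. The genes given with every library's value are, per pathway, up to 3 called genes with the largest difference after either drug, up to 2 called genes of opposite sign, and genes a result turns on. Other pathway genes named are up to 2 called per pathway by the same rule, and some are not reported here. Alternatives were a pseudocount of 0.1 FPKM, no filter, a filter at a mean of 5 FPKM, 3 scalings (TPM, median of ratios, quantile), a replicate block, a fit over the compared groups only, no variance trend, and the omission of each library. Tables and figures used matplotlib 3.10.9 and pandas 2.3.3 under Python 3.11.15.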

Additional observations from a re-analysis of the deposited data

Results flagged for a closer look

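Each of the 43 genes was checked in each of the 4 groups, 172 sets of 4 libraries, for a single library far from the other 3 (by Dixon's ratio of gap to range). Chance flags about 1 in 20 such sets, 8.6 here, and 7 were found. In bleomycin cells Xrcc1 had 14.2 FPKM in replicate 4, while the others lay from 16.7 to 17 FPKM. In doxorubicin cells Atm had 3.07 FPKM in replicate 2, with the others at 3.37 to 3.41 FPKM, and Bard1 had 0.521 FPKM in replicate 4, with the others at 0.429 to 0.438 FPKM. In IL-1β cells Chek2 had 5.24 FPKM and Trp53bp1 9.32 FPKM in replicate 4, with the others at 3.85 to 3.91 and 7.91 to 8.1 FPKM, and Rad51c had 2.55 FPKM in replicate 2, with the others at 1.1 to 1.26 FPKM. In vehicle cells Eme1 had 3.79 FPKM in replicate 4, with the others at 2.66 to 2.72 FPKM.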

How the results depend on the processing

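Of the calls of listed genes, 22 of 24 after bleomycin, 28 of 31 after doxorubicin, 7 of 16 after IL-1β, 4 of 9 between the drugs and 7 of 19 against IL-1β held under every alternative. Leaving out single libraries gave, for bleomycin, 3 to 4 genes higher and 20 to 22 lower, for doxorubicin 3 to 4 and 25 to 29, for IL-1β 2 to 2 and 8 to 15, for bleomycin minus doxorubicin 5 to 10 and 0 to 1, and for the drugs minus IL-1β 2 to 4 and 14 to 18. All genes called ranged from 5611 to 6216, 5839 to 6382, 5115 to 5599, 903 to 1376 and 7041 to 7568 in the same 5 comparisons. The filter at a mean of 5 FPKM left 17 listed genes, by which doxorubicin had 2 higher and 10 lower, bleomycin 6 lower, IL-1β 7 lower, bleomycin minus doxorubicin 3 higher and 1 lower, and the drugs minus IL-1β 4 lower. IL-1β had 9 lower with no filter and 9 with the compared groups only. TPM scaling gave 0 higher and 30 lower for IL-1β, 16 higher and 5 lower for the drugs minus IL-1β, and 1 lower for bleomycin minus doxorubicin, as did median-of-ratios and quantile scaling. It also reversed differences: after IL-1β Atr to -0.33, Ercc1 to -0.0822, Msh6 to -0.29 and Ogg1 to -0.27, and for the drugs minus IL-1β Atr to 0.10, Ercc2 to 0.34, Lig3 to 0.0947, Mre11a to 0.26, Msh6 to 0.13, Xrcc1 to 0.34 and Xrcc6 to 0.22. TPM divides by library sums that are larger in IL-1β. In each IL-1β library the highest gene was Saa3, at 62509 to 80249 FPKM, which is part of that sum. The highest gene of the other libraries, Col2a1 or Fn1, had 5599 to 10625 FPKM. The cause of the difference in sums was not tested.

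The replicate numbers were not shown to pair the libraries: deviations of same-numbered libraries correlated at -0.02 to 0.21 across genes in 24 pairs, 6 of them over 0.1, and 11 of 16 libraries correlated best with their own number, a hint from the data and not the design. With the replicate number as a block the counts higher and lower were 3 and 21 for bleomycin, 4 and 27 for doxorubicin, 2 and 13 for IL-1β, 9 and 0 for bleomycin minus doxorubicin, and 3 and 15 for the drugs minus IL-1β. For transcripts near 1 FPKM, such as Brca2 and Palb2, the spread between libraries limits what can be told.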
